A study of Mus musculus with 6 samples.

Results

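The genes followed here encode 10 myeloid C-type lectin receptors, those of the chromosomal cluster around Clec4a1 together with related receptors outside it: Clec4a1, Clec4a2, Clec4a3, Clec4b1, Clec4d, Clec4e, Clec4n, Clec7a, Clec12a and Clec10a. They were 10 of 19938 measured genes. They were found by symbol in the array annotation, with the brightest probeset per gene. The set was chosen by the difference of Clec4a1 between HLX and control cells in these same arrays, so the contrast is given for all 10 as a description without a test. The cells were bone marrow cells without lineage markers that carried Kit and Sca-1, the fraction that holds haematopoietic stem cells and early progenitors, taken from young adult wild-type mice of the FVB/nJ strain. Group 1 was infected with a lentivirus encoding mouse HLX, a homeobox transcription factor, and GFP (pCAD-HLX-IRES-GFP, written pCAD-IRES-GFP-Hlx elsewhere in the labels). Group 2 received the control lentivirus pCAD-IRES-GFP. Both groups, of 3 arrays each, spent 2 days in culture with serum and the mouse cytokines SCF, IL-6 and IL-3, were exposed to polybrene at 8 µg/ml and were sorted for GFP, so all cells carried virus. Whether replicates were separate mice or cultures is not stated in the labels, and the spread between them may be technical.

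C-type lectin receptors are cell surface proteins of myeloid cells that recognise sugars, lipids or crystals from microbes and damaged cells. Members without a signalling tail, such as Dectin-2 (Clec4n), MCL (Clec4d) and Mincle (Clec4e), signal through the Fc receptor gamma chain (Fcer1g), whereas Dectin-1 (Clec7a) uses a tyrosine motif of its own; both routes lead through the kinase Syk and the adaptor Card9 to NF-kB. Others, such as DCIR (Clec4a2) and Clec12a, carry an inhibitory motif that recruits phosphatases such as that of Ptpn6. In the bone marrow these receptors are known from monocytes, granulocytes and dendritic cells.

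All 6 arrays had similar distributions, with median log2 levels of 6.32 to 6.40 and pairwise correlations over all genes of 0.980 to 0.987. Hlx, the transferred gene, whose probeset may read vector and endogenous transcript together, had log2 levels of 10.75, 9.74 and 10.28 in HLX replicates 1, 2 and 3, against 6.99, 7.29 and 7.62 in control replicates 1, 2 and 3, which fits the labels. The levels are log2 RMA values, and the file gives no detection calls. Kit, the receptor used in the sort, was at 9.59, 9.58 and 9.31 in HLX cells and at 9.20, 9.50 and 9.53 in control cells, and Cd34, a further progenitor marker, at 10.72 to 11.36 in HLX cells and 11.15 to 11.26 in control cells. In the fit of HLX against control vector by limma, 0% of the 19938 genes, 0 in number, had an adjusted p under 0.05. The count at an unadjusted p under 0.05 was 958, or 4.8%.

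Promoter sequences are shown for Clec4a1 and Clec4a3, because these adjacent genes had the highest differences among the 10 and because a stretch of their upstream sequence is alike. Windows from 250 bases before to 50 bases after the annotated start came from RefSeq, build GRCm38.p6, which held 8 of the 10 genes; Clec4n and Clec10a were the other two. The Clec4a1 window is chr6:122921598-122921897 and the Clec4a3 window, at the second of 2 annotated starts, chr6:122952394-122952693, both on the plus strand. Capitals mark the stretch that aligned between them.
Clec4a1: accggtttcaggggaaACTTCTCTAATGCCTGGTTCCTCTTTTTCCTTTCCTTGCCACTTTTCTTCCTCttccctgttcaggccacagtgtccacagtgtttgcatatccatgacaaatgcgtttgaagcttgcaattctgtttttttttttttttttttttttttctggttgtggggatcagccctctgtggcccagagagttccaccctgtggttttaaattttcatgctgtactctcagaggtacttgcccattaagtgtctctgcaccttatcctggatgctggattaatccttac
Clec4a3: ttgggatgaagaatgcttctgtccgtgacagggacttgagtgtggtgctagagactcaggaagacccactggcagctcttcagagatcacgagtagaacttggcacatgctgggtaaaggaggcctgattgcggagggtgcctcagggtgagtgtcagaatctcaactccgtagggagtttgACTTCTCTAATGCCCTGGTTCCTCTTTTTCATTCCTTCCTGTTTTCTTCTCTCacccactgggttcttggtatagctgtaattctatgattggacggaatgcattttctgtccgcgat
The stretch is 53 bases long in each gene, with 48 identical positions in 55 aligned columns (87.3%). It lies 234 to 182 bases upstream of the start in Clec4a1 and 68 to 16 bases upstream in Clec4a3. It is rich in C and T. By local alignment score (67) this Clec4a3 window ranked 1 of 32850 other promoter windows against that of Clec4a1, with 61 for the next. The other 6 genes with a window scored 19 to 24. The second start of Clec4a3 was chosen by this score, and the window at its first start scored 16. Its longest identical run, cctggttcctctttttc, 17 bases, occurs in the same orientation in 2 of the windows, these 2.

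The same windows were searched on both strands for 3 short motifs, whose matches may overlap one another: GAGGAA, the core bound by PU.1, the myeloid factor encoded by Spi1; TTNNGNAA, a C/EBP-type site; and TAAT, the core of many homeodomain proteins. A gene was counted if any of its windows held a match, whereas the shares over all windows count each window singly. Clec4a3 and Clec7a had more than 1 window. GAGGAA occurred in 7 of the 8 genes and in 28.3% of all 32851 windows. The Clec4a1 window held 2 matches, both inside the aligned stretch on the reverse strand, and the Clec4a3 window 1, also inside it. TTNNGNAA occurred in 4 of the 8 genes (40.7% of all windows), namely Clec4a2, Clec4d, Clec4e and Clec12a. TAAT occurred in all 8 genes with a window, though not in the window at the first Clec4a3 start, and in 58.0% of all windows. A match describes the letters in the window and shows no binding.

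**Figure D1:**
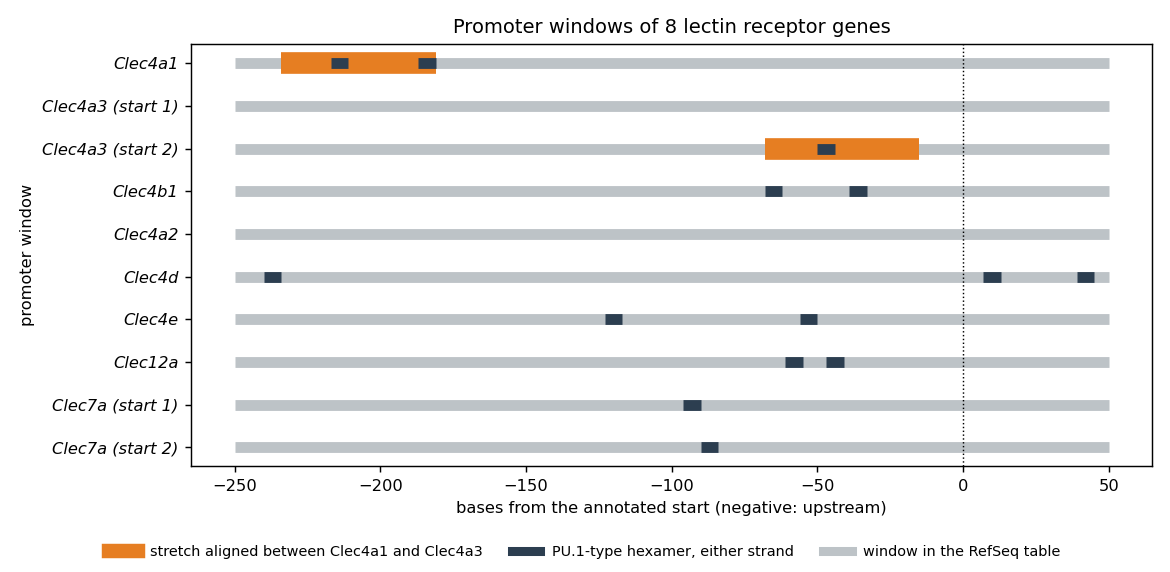
Promoter windows of 8 of the 10 genes, 1 row per annotated start, with the distance from the start in bases on the x axis. Orange marks the stretch aligned between Clec4a1 and Clec4a3, and dark blocks mark GAGGAA matches on either strand. In both genes matches lie inside the stretch. The Clec4a2 window and the window at the first Clec4a3 start have none.

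Of the DCIR genes, Clec4a1, Clec4a3 and Clec4a4 stand side by side in the cluster, and Clec4a2 lies farther along, beyond Clec4b1. The log2 difference was 1.37 for Clec4a1, 0.50 and 0.65 for its next neighbours Clec4a3 and Clec4a4, and 0.015 for Clec4a2. None was called. Clec4a1, listed as Dcir4 in RefSeq, had log2 levels of 8.99, 7.56 and 7.88 in HLX replicates 1, 2 and 3, against 6.72, 6.67 and 6.94 in control replicates 1, 2 and 3. Every HLX array lay above every control array, with a gap of 0.62 between the nearest, and HLX replicate 1 stood well above the other HLX arrays. The group means were 8.14 ± 0.75 and 6.78 ± 0.14 (SD, n = 3 each), 2.58-fold apart (log2 difference 1.37 ± 0.34, moderated SE from limma; 95% interval 0.57 to 2.16). Without HLX replicate 1 the log2 difference was 0.94, and without HLX replicate 2 it was 1.66. This is the value for which the genes were gathered, and it supports nothing further.

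Clec4a3, listed as Dcir3, is the next gene on the chromosome. It had levels of 5.69, 5.99 and 5.32 with HLX, against 5.49, 5.0 and 5.02 with the control vector. Its groups overlapped, since HLX replicate 3 lay below control replicate 1. The log2 difference was 0.50 ± 0.20 (95% interval 0.024 to 0.97), or 1.41-fold, and its highest HLX array was replicate 2 where that of Clec4a1 was replicate 1. Clec4a2, the inhibitory receptor DCIR, had 4.46, 4.38 and 4.54 with HLX, against 4.53, 4.30 and 4.50 with the control vector. The groups overlapped fully, and the 95% interval of the log2 difference, -0.23 to 0.26, reached 1.20-fold in the direction of Clec4a1. Clec4a4, known as DCIR2 in the mouse, was not one of the 10 genes but lies between them, next to Clec4a3. Its levels were 5.30, 4.49 and 4.55 with HLX, against 4.02, 4.07 and 4.30 with the control vector. Its groups did not overlap, and HLX replicate 1 was highest, as for Clec4a1 (log2 difference 0.65 ± 0.22, adjusted p from limma 0.950, not called). The genes are close paralogues, the probe sequences were not used here, and signal shared between their probesets was not tested.

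**Figure D2:**
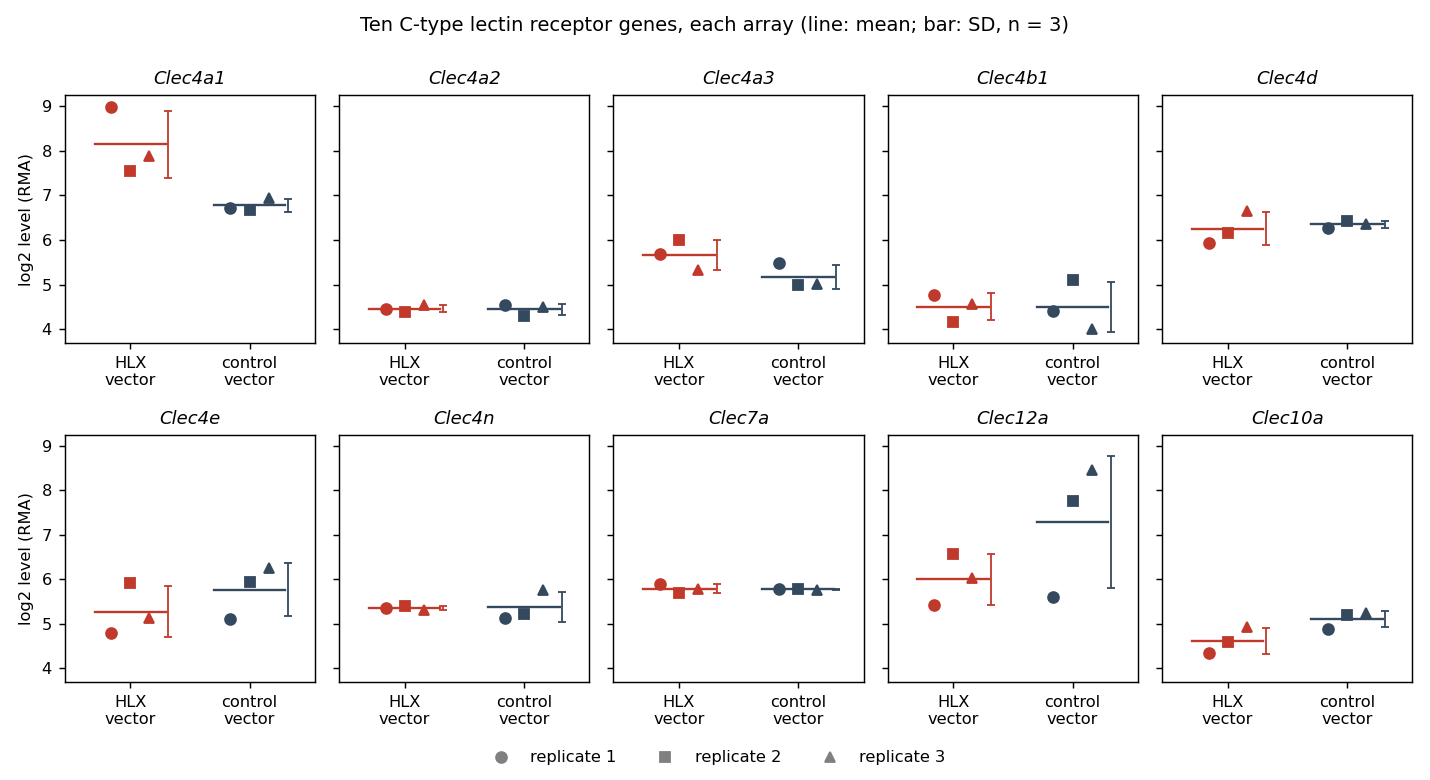
Log2 RMA level of each of the 10 genes in every array, with HLX cells on the left (red) and control cells on the right (dark) of each panel; symbols give the replicate number, lines the mean and bars the SD. Clec4a1 alone has all HLX arrays above all control arrays, and Clec12a spreads from 5.61 to 8.45 among the control arrays.

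The receptors that pair with the Fc receptor gamma chain showed no common direction. Clec4b1, the activating receptor DCAR, had 4.77, 4.17 and 4.57 with HLX, against 4.41, 5.11 and 4.0 with the control vector, with means equal to 2 decimals and overlapping groups. Clec4n, Dectin-2, which binds fungal mannans, had 5.35, 5.41 and 5.30 with HLX, against 5.14, 5.21 and 5.76 with the control vector (log2 difference -0.016 ± 0.17). Its HLX arrays were tightly grouped within the span of the controls. Clec4d, or MCL, which partners Mincle, had 5.93, 6.16 and 6.66 with HLX, against 6.26, 6.43 and 6.37 with the control vector (-0.10 ± 0.18). Here it was the control arrays that lay close together, between the HLX extremes. The sign for Clec4b1, Clec4n and Clec4d turned with single arrays or with the normalization.

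Clec4e, or Mincle, which recognises mycobacterial cord factor, had the lowest log2 difference of this subgroup. Its levels were 4.79, 5.91 and 5.13 with HLX, against 5.10, 5.93 and 6.25 with the control vector. The groups overlapped widely, because control replicate 1 lay between HLX replicates 1 and 3, and HLX replicate 2 was close to control replicate 2. The log2 difference was -0.49 ± 0.36 (95% interval -1.33 to 0.36), and with 1 array left out it ran from -0.82 (without control replicate 1) to -0.24 (without control replicate 3 or HLX replicate 1).

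A pair of the genes lies farther along chromosome 6 in the Dectin-1 cluster. Clec7a, Dectin-1, the beta-glucan receptor, had 5.89, 5.70 and 5.78 with HLX, against 5.79, 5.78 and 5.76 with the control vector. It was the steadiest of the 10 across control arrays, with an SD of 0.014, and its 95% interval of -0.20 to 0.23 reached 1.18-fold in the direction of Clec4a1. Clec12a, an inhibitory receptor for uric acid crystals that is also known from human leukaemic stem cells, had 5.42, 6.56 and 6.02 with HLX, against 5.61, 7.77 and 8.45 with the control vector. Control replicates 2 and 3 lay above all HLX arrays, while control replicate 1 lay among them, 2.15 below control replicate 2. The mean log2 difference was -1.28 ± 0.68 (95% interval -2.87 to 0.32), 2.42-fold lower with HLX, with -2.11 without control replicate 1 and -0.69 without control replicate 3. The SD of Clec12a among control arrays, 1.48, ranked 10 of 19938 genes, where the median gene had 0.131.

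Clec12a and Clec4e ordered the arrays alike. In both genes the order was HLX replicate 1, control replicate 1, HLX replicates 3 and 2, then control replicates 2 and 3, low to high. Tyrobp, the adaptor DAP12 of myeloid receptors, also had both arrays numbered 1 at the bottom, with 9.97, 11.20 and 11.25 in HLX cells, against 9.61, 10.99 and 11.03 in control cells. Control replicate 1 was in turn the highest array for the mast cell protease genes Cpa3 (4.96, 4.77 and 4.85 with HLX, against 7.47, 4.99 and 5.10 with the control vector) and Mcpt8 (5.16, 4.85 and 5.31 with HLX, against 6.60, 5.86 and 5.01 with the control vector). The 11 mast cell and basophil markers had 9 below 0, among them Hdc, the histamine-forming enzyme gene (-0.15 ± 0.092), and their summed level ran from 9.17 to 9.40 in HLX arrays and from 9.22 to 9.78 in control arrays, on the log2 scale of the sum, with the highest in control replicate 1. The part of these cells in the low Clec12a of that array was not tested. In bulk arrays such as these, fewer cells of a type and less RNA per cell cannot be told apart.

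Clec10a, the galactose receptor MGL1 of macrophages and dendritic cells, lies apart from the others on chromosome 11. It had 4.35, 4.59 and 4.93 with HLX, against 4.89, 5.20 and 5.23 with the control vector. HLX replicate 3 lay just above control replicate 1, the only overlap. The log2 difference was -0.49 ± 0.17 (95% interval -0.89 to -0.092), 1.40-fold lower with HLX.

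Counted together, 4 of the 10 genes had a log2 difference above 0 and 6 below, with a median of -0.0081, beside 47.5% above 0 and a median of -0.0078 over all genes. Groups did not overlap in 1 of the 10, Clec4a1, which chose the set, and in 9.19% of all genes (4.34% with HLX higher). None of the 10 was among the genes called, since 0 were called. The mean level of 8 of the 10 was below the median over all probesets of 6.36, and only Clec4a1 and Clec12a passed that filter on dim signals. RMA in general compresses weak signals and so understates differences of dim genes. The count of genes with separate groups changed with single arrays. It was 5 without control replicate 1 (Clec4a1 and Clec4a3 higher; Clec4e, Clec12a and Clec10a lower) and 4 without HLX replicate 3 (Clec4a1 and Clec4a3 higher; Clec4d and Clec10a lower). It was 2 without control replicate 3. Over all genes the shares were then 20.2%, 24.1% and 17.2%, since fewer arrays overlap less often.

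**Figure D3:**
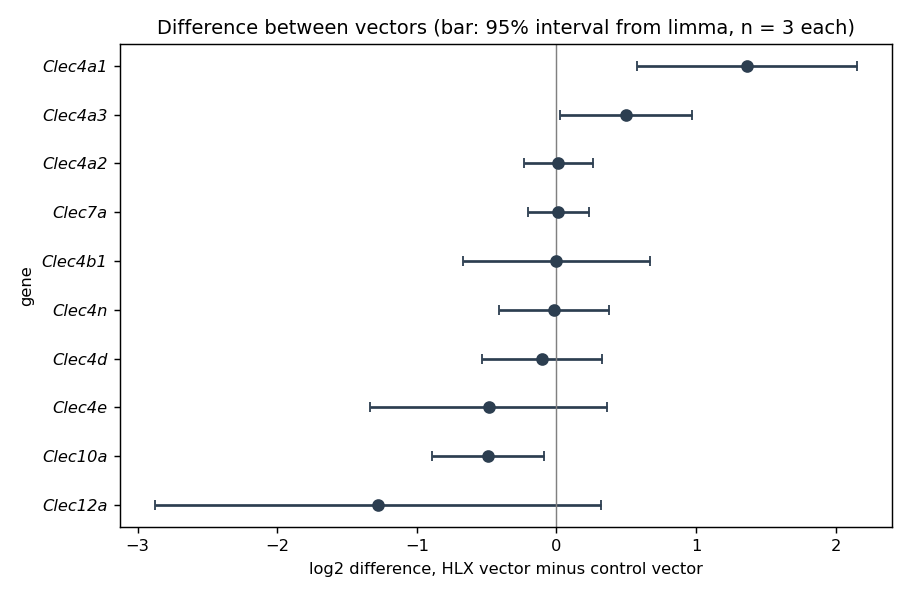
Log2 difference of each of the 10 genes, HLX minus control vector, on the x axis, with the 95% interval from limma (n = 3 arrays each). Clec4a1 is at 1.37 and Clec12a at -1.28, with 5 genes within 0.11 of 0 between them.

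Whether the neighbourhood of Clec4a1 differed with it was examined along chromosome 6, in the gene order of the RefSeq table (GRCm38.p6). Of the 30 nearest measured genes other than the 10, 15 on each side, 0 were called, 17 were above 0 and the median log2 difference was 0.021. Groups did not overlap in 7 of them, 5 higher and 2 lower, beside the 9.19% of all genes. Only 9 of the 30 had a mean level above the median over all probesets. On the one side, Necap1, which acts in clathrin-mediated uptake and was picked out after its values were seen, was at 0.24 ± 0.11 next to Clec4a1. C3ar1, a complement receptor picked out likewise, was at -0.066 ± 0.18, followed by the forkhead factor gene Foxj2.

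Foxj2 had 8.07, 7.75 and 8.05 with HLX, against 7.14, 7.41 and 7.59 with the control vector (0.58 ± 0.15, adjusted p from limma 0.901). Slc2a3, a glucose transporter gene and the next in line, had the opposite sign, with 7.69, 7.12 and 7.38 with HLX, against 8.04, 8.05 and 8.55 with the control vector (-0.82 ± 0.19, adjusted p from limma 0.901). Both genes had separate groups, and neither was called. The predicted gene Gm10319, farther on this side, was at 0.38 ± 0.11. On the other side the run of positive values ended after Clec4a4: Clec4b1, Clec4a2, Clec4b2, Clec4n and Clec4d all lay between -0.10 and 0.044. Each of these lay within its SE of 0 and had a mean level below the median over all probesets. Their signs are thus undetermined, and whether they share the direction of Clec4a1 could not be told.

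**Figure D4:**
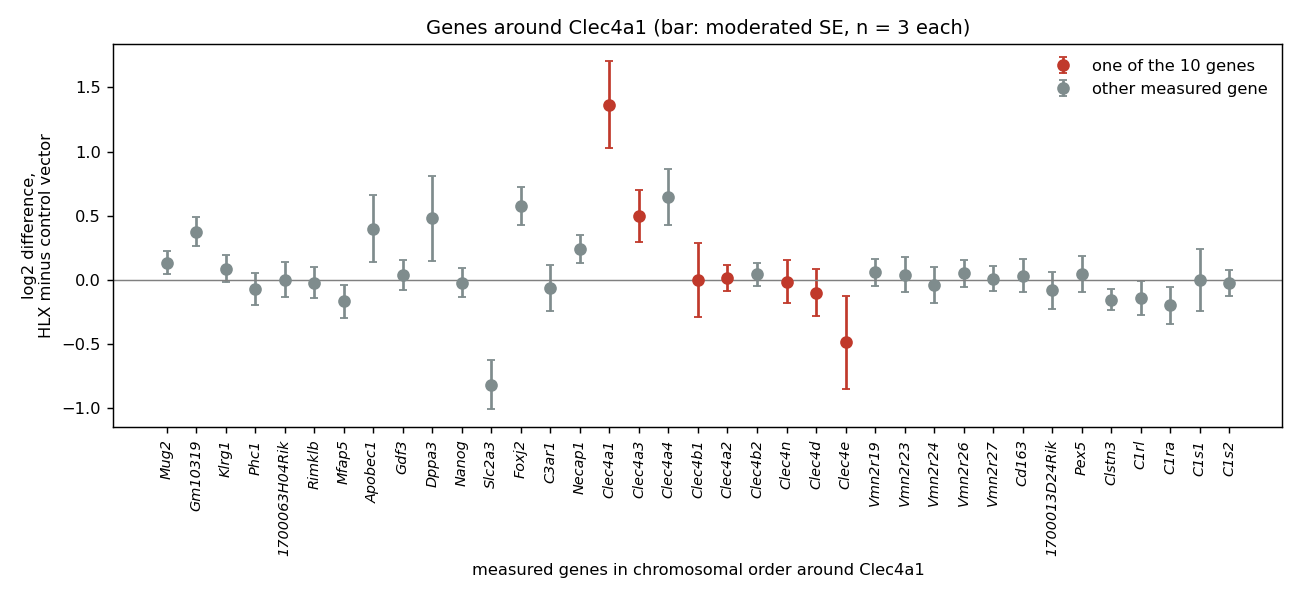
Log2 difference, HLX minus control vector, with its moderated SE, for the measured genes in chromosomal order around Clec4a1; red marks genes of the set of 10. Clec4a1, Clec4a3 and Clec4a4 form a run of positive values from 1.37 to 0.50, Slc2a3 lies at -0.82 and Clec4e at -0.49.

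Around Clec7a the 30 nearest measured genes, mostly natural killer and lectin-like receptor genes, had log2 differences from -0.62 to 0.26. Among them 0 were called, 13 were above 0, and the median was -0.0066. Groups did not overlap in 3 of the 30, a share near the 9.19% of all genes. Most were dim, and 5 of the 30 had a mean level above the median over all probesets. Clec2i, a lectin-like gene, had 6.35, 6.30 and 6.24 with HLX, against 7.04, 7.0 and 6.16 with the control vector (-0.44 ± 0.23). Its groups overlapped through control replicate 3. Klrb1c, the NK1.1 antigen gene, was at -0.20 ± 0.10 and Clec2g at -0.20 ± 0.11, both with separate groups and an adjusted p from limma of 1.0.

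The genes whose pattern over the 6 arrays was closest to Clec4a1 were sought by the root mean square distance between log2 profiles, each centred on its own mean. Because this measure contains the difference between vectors, it picks genes that were also higher with HLX. After 1 clone symbol, the nearest named genes were Rnf217, a ubiquitin ligase gene (distance 0.378), Ccnyl1, a cyclin-like gene (0.394), Gna11, a G protein subunit gene (0.395), Treml4, a myeloid receptor gene (0.401), and Car5b, a mitochondrial carbonic anhydrase gene (0.404). Clec4a4 came directly after them, at rank 7 of 19937 genes with a distance of 0.404, and was singled out after this was seen. A gene that did not vary at all would have a distance of 0.814.

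Among the other 9 genes Clec4a3 was the nearest, at rank 857 with 0.693. Clec4a2 and Clec7a, which hardly varied, were at 0.803 and 0.780, and Clec12a, at rank 19930 with 1.73, was among the most unlike of all genes. Treml4 had 7.27, 5.56 and 6.19 with HLX, against 5.58, 5.65 and 6.0 with the control vector. As with Clec4a1, HLX replicate 1 was highest, while HLX replicate 2 was below all 3 controls, so the groups overlapped. Among the HLX arrays both Clec4a1 and Hlx itself were highest in replicate 1 and lowest in replicate 2, an order over 3 arrays that was not tested.

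Genes that carry the signal of these receptors were followed in a list of adaptors and activating signalling genes, of which 25 of 30 were measured. None was called, 17 were above 0 and the median log2 difference was 0.089; groups did not overlap in 6, 5 higher and 1 lower, beside 9.19% of all genes, 4.34% higher and 4.85% lower. Fcer1g, the gamma chain itself, had 8.09, 8.15 and 7.61 with HLX, against 8.39, 8.55 and 8.86 with the control vector. All HLX arrays lay below all control arrays (log2 difference -0.65 ± 0.18, adjusted p from limma 0.914).

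Syk, the kinase that docks on the phosphorylated chain, lay the other way, with 8.61, 8.64 and 8.59 with HLX, against 8.36, 8.18 and 8.20 with the control vector (0.36 ± 0.095, adjusted p from limma 0.901). Card9, the adaptor below Syk, had 6.48, 6.80 and 6.65 with HLX, against 5.95, 6.33 and 6.42 with the control vector (0.41 ± 0.15, adjusted p from limma 0.989). Bcl10, its partner, had 6.85, 7.06 and 6.91 with HLX, against 6.63, 6.63 and 6.47 with the control vector (0.36 ± 0.10, adjusted p from limma 0.932). In each of these 3 genes all HLX arrays lay above all controls, while Tyrobp overlapped (0.26 ± 0.47). The signs of Fcer1g, Syk, Card9 and Bcl10 were the same under all 15 alternatives. Leaving out arrays could not turn them, because the groups of these genes did not overlap.

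**Figure D5:**
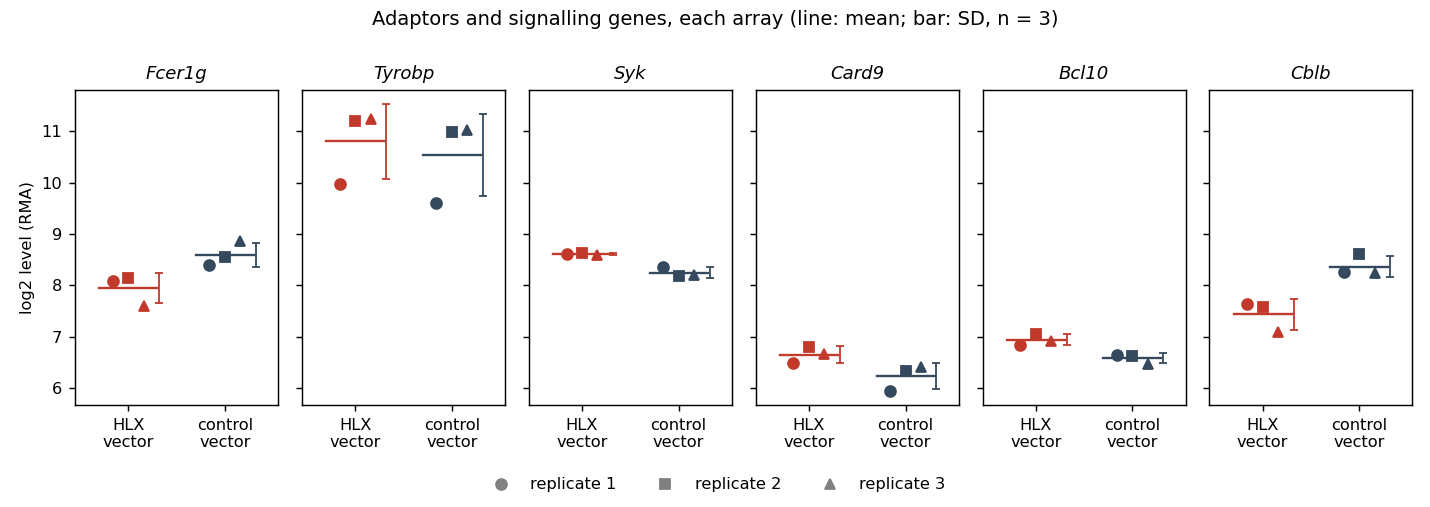
Log2 RMA level in every array of the adaptors Fcer1g and Tyrobp, the signalling genes Syk, Card9 and Bcl10 and the ubiquitin ligase gene Cblb, with HLX cells on the left of each panel; lines are means and bars SD (n = 3). Fcer1g and Cblb lie lower in all HLX arrays and Syk, Card9 and Bcl10 higher, while in Tyrobp both arrays numbered 1 are lowest.

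Of 10 phosphatases and other negative regulators all 10 were measured, 3 above 0 and 7 below, with a median of -0.011 and 0 called. Cblb, a ubiquitin ligase that marks Syk-coupled receptors for degradation, had 7.63, 7.58 and 7.09 with HLX, against 8.25, 8.60 and 8.24 with the control vector (-0.93 ± 0.18, adjusted p from limma 0.824). Ptpn22, a tyrosine phosphatase gene, had 7.99, 7.76 and 7.37 with HLX, against 8.43, 8.25 and 8.17 with the control vector (-0.58 ± 0.17, adjusted p from limma 0.932). Both had separate groups, whereas Csk, a kinase that restrains Src kinases, overlapped at 0.26 ± 0.12. The 16 cytokine and early response genes below these pathways had 6 above 0, a median of -0.057 and 0 called. Tnf had 8.89, 8.47 and 8.59 with HLX, against 7.51, 7.53 and 8.19 with the control vector. Ccl3, a chemokine gene, ran the opposite way, with 7.39, 6.84 and 6.82 with HLX, against 7.67, 8.23 and 8.42 with the control vector. Nlrp3, the inflammasome sensor gene, was at 0.41 ± 0.27 with overlapping groups.

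Set beside the 10 genes, 39 further C-type lectin receptor genes, all measured, had 15 above 0 and a median of -0.0083, with 0 called and separate groups in 4, a share near the 9.19% of all genes. Clec4a4 was the highest of them and the one with HLX arrays above all controls. Of the 39, 7 had a mean level above the median over all probesets. Markers of monocytes and macrophages, which can express many of the 10 genes, had a summed level, on the log2 scale of the sum, of 11.54 to 11.87 in HLX arrays and 11.32 to 11.63 in control arrays over 14 measured of 15 markers. Of these markers 9 were above 0, and 5 had separate groups, 2 higher and 3 lower, beside 9.19% of all genes. Csf1r, the macrophage growth factor receptor gene, had 6.49, 7.80 and 8.92 with HLX, against 6.28, 6.48 and 6.37 with the control vector. Its highest array was HLX replicate 3 and its lowest HLX array replicate 1, the array in which Clec4a1 was highest.

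Itgax, the CD11c gene of dendritic cells, ordered the HLX arrays as Csf1r did. Its levels were 6.14, 7.19 and 8.43 with HLX, against 5.66, 6.20 and 6.33 with the control vector. Unlike those of Csf1r, its groups overlapped. Cd68, a macrophage marker, was at 9.91, 9.52 and 9.53 with HLX, against 9.17, 8.95 and 9.33 with the control vector. Lyz2, the lysozyme gene (0.70 ± 0.13), and Itgam, the CD11b gene (0.89 ± 0.22), are myeloid markers outside these lists, picked out after their values were seen; in both all HLX arrays lay above all controls, and neither was called (adjusted p from limma 0.824 and 0.901). Mpeg1, a macrophage perforin gene, was lower in all HLX arrays (8.31, 8.41 and 7.75 with HLX, against 8.61, 8.63 and 8.98 with the control vector). The summed level over 14 dendritic cell markers was 12.35 to 12.49 in HLX arrays and 12.18 to 12.52 in control arrays. Of these 14 markers 4 had separate groups, 1 higher and 3 lower, with Flt3 and Siglech among the lower, beside 9.19% of all genes. The summed level over 13 neutrophil markers was 9.05 to 9.33 in HLX arrays and 8.99 to 9.05 in control arrays. In the neutrophil list Cxcr2, a chemokine receptor gene, had 5.32, 7.17 and 4.94 with HLX, against 4.42, 4.74 and 4.26 with the control vector. Of the 13 neutrophil markers 4 had separate groups, Cxcr2 higher and 3 lower, beside 9.19% of all genes. Among the lower were Camp (-0.19 ± 0.10), an antimicrobial peptide gene, and Ly6g (-0.15 ± 0.095), the neutrophil surface antigen gene. Only 1 of the 13 had a mean level above the median over all probesets. The summed level of 10 stem and multipotent progenitor markers was 12.35 to 12.55 in HLX arrays and 12.58 to 12.70 in control arrays. Of the 10, 9 were below 0, among them Flt3, a cytokine receptor gene (-0.68 ± 0.16), and Mecom, a stem cell regulator (-0.81 ± 0.21), both with separate groups, and Hlf (-0.40 ± 0.25). Over 9 measured lymphoid and erythroid markers, 3 of them above 0, Klf1, an erythroid factor gene, was at -0.20 ± 0.13 and Klrd1, a natural killer receptor gene, at 0.15 ± 0.15; the summed level was 8.51 to 8.71 in HLX arrays and 8.61 to 8.73 in control arrays. None of these lists had a member called. Their part in the values of the lectin receptor genes was not tested.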

How the data were processed

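Gene expression was measured on Affymetrix arrays, 3 with HLX and 3 with control lentivirus. The authors deposited log2 levels, 1 per probeset and array. Their tools were Affymetrix Power Tools and RMA, as named in the submitters' processing notes. That the scale is log2 follows from the values, which span about the same range on every array. No genome build was named for the annotation in the sources used here. The number of arrays limits the precision.

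Of 35556 probesets 21789 had 1 gene symbol, 1621 several and 12146 were unlisted. Probesets with 1 symbol were kept, the brightest per gene, which gave 19938 genes; each of the 10 receptor genes had 1 probeset, and no filter on dim signals was applied. HLX against control vector was fitted with limma 3.58.1 (lmFit, eBayes; R 4.3.3), as a 2-sided test; p-values were adjusted by Benjamini-Hochberg over the 19938 genes, and a gene was called at an adjusted p under 0.05; the code was tested on simulated data. Summed marker levels add linear values. Promoter windows were aligned locally with Biopython 1.88 (match 2, mismatch -3, gap opening -5, extension -2). The receptor genes and all lists were chosen with earlier results of these data known. Named are the 10 genes, Hlx, the 3 smallest p per list, Fcer1g, Tyrobp, Syk, Card9 and the 5 profiles nearest to Clec4a1. Kit was added as a check of the sort and Cd34 as a further progenitor marker, with other exceptions marked. Alternatives were a filter on dim signals, other normalizations, priors, array weights, a replicate block, arrays left out and averaged probesets.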

Additional observations from a re-analysis of the deposited data

How the results depend on the processing

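With 3 arrays per vector and no detection calls, small differences of dim genes could not be resolved. Over all genes the count called was 0 under every alternative except a trended and robust prior, which called 1, Hlx. Of the 10 receptor genes, 1 had separate groups, and 2 had after quantile normalization, median centring or cyclic loess (Clec4a1 and Clec10a). The shares of all genes were 10.2%, 9.92% and 10.4% after these normalizations, beside 9.19% without them. With 1 array left out the count was 1 to 5, when 16.7% to 24.1% of all genes had separate groups. Without both arrays numbered 1 the count was 5, when 31.2% of all genes had separate groups, since fewer arrays overlap less often. The gene lists and the neighbours had 0 called under all 15 alternatives. Whether replicate numbers pair the arrays could not be settled here. Deviations from the group mean correlated at 0.200, 0.0085 and 0.143 for same-numbered arrays. For differently numbered arrays the correlations ran from -0.225 to 0.105. A replicate block left 0 genes called (smallest adjusted p from limma 0.636). Which genes have separate groups does not depend on the block. The sign of the log2 difference held in all 15 alternatives for Clec4a1 (0.91 to 1.66) and Clec12a (-2.11 to -0.69). It also held in the 14 that could be run for Clec4a3, Clec4e and Clec10a, which the filter on dim signals left out. For Clec4a1, which chose the set, leaving out arrays could not turn the sign, because its groups did not overlap. The filter, the prior, the replicate block and averaged probesets do not change its difference. The sign turned in some alternatives for Clec4a2, Clec4b1, Clec4d, Clec4n and Clec7a.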

Other observations

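Other receptors that signal through the same adaptors or through inhibitory motifs had 22 of 23 listed genes measured, 14 above 0, a median log2 difference of 0.017 and 0 called. Sirpa, the inhibitory receptor for CD47, had 9.44, 9.39 and 9.39 with HLX, against 9.19, 8.98 and 8.89 with the control vector. Cd300a, a further inhibitory receptor gene, had 7.72, 8.43 and 8.72 with HLX, against 7.46, 7.54 and 7.88 with the control vector, and its groups overlapped. Siglech, a receptor gene of plasmacytoid dendritic cells, was lower in all HLX arrays (6.05, 5.80 and 5.92 with HLX, against 6.25, 6.18 and 6.30 with the control vector).

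Of 16 myeloid transcription factor genes 15 were measured, 11 above 0, with a median of 0.12 and 0 called. Spi1, which encodes PU.1, had 9.19, 9.58 and 9.96 with HLX, against 8.44, 8.77 and 9.43 with the control vector, with 1 HLX array below the highest control. Cebpb had 7.0, 6.93 and 7.32 with HLX, against 6.69, 6.70 and 6.79 with the control vector, without overlap. Irf4 had 7.22, 7.25 and 7.27 with HLX, against 6.18, 6.95 and 7.17 with the control vector, also without overlap. The adjusted p from limma of these 3 genes was 0.963 to 1.0.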
